A study of Mus musculus with 2 samples.

Results

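The genes described are the nuclear-encoded genes of oxidative phosphorylation (OXPHOS) in mouse uterus: 96 of the 32285 gene rows of the count tables. They were chosen by symbol: those that start with Nduf, Uqcr, Cox4i, Cox5, Cox6, Cox7, Cox8 or Atp5, together with Sdha, Sdhb, Sdhc, Sdhd, Cyc1, Cycs and Chchd10. The pseudogene row Ndufb1-ps was left out. All 96 had at least 1 unique molecular identifier (UMI, the tag that marks a captured RNA molecule) in cells. By role, 7 are core subunits of complex I, 29 are its accessory subunits and 8 are its assembly factors. Complex II has 4, complex III with cytochrome c 10, complex IV 20 (the Cox subunits with Ndufa4 and Ndufa4l2) and ATP synthase, complex V, 17, and Chchd10 stands alone. The set was proposed because Ndufv3, Chchd10 and Cox5b had been among the lowest ratios of all genes in smooth muscle-like cells of these same libraries, so the values in those cells are a description and not support for it.

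Whole uteri of female C57BL/6J mice aged 6 months were digested with collagenase for 5 hours and read by droplet RNA sequencing from the 3′ end of transcripts. One library was labelled Prickle1 f/f (control) and the other Prickle1 f/f MiC (cKO), and each was a pool of 3 mice. The floxed Prickle1 alleles are shared by both groups, the labels do not spell out MiC, and wild-type is what their genotype field gives for both. The comparison addresses what losing Prickle1, a planar cell polarity gene, does to the uterus. With 1 library per group and cells that are not replicates, no value has a replicate error and no test was made. Intervals are 95% and cover counting error only.

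Oxidative phosphorylation is carried out in the inner mitochondrial membrane. Complexes I and II pass electrons from NADH and succinate to ubiquinone, complex III passes them on to cytochrome c, and complex IV passes them to oxygen. Complexes I, III and IV move protons across the membrane, and ATP synthase uses the return of those protons to make ATP. Most subunits are encoded in the nucleus and imported, while 13 proteins are encoded by the mitochondrial genome, and assembly factors help to build the complexes without staying in them. Smooth muscle spends ATP on contraction and ion pumping.

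The control-labelled library held 45035801 UMIs and 3490 cells, with a median of 4953 UMIs per cell, and the cKO-labelled library held 34261441 UMIs and 3586 cells, with a median of 4903. The libraries shared 6 cell barcodes. Prickle1 went against the labels: over all cells it had 96 UMIs in the control-labelled library, 2.56 CPM (2.07 to 3.12; CPM scales all genes of a group of cells to 1e6), and 265 UMIs in the cKO-labelled library, 9.03 CPM (7.97 to 10.2). Smooth muscle-like cells had 15 UMIs of it (15.6 CPM) and 52 UMIs (24.7 CPM). Reads from the 3′ end may lie outside the deleted part, so these counts do not check the deletion. Why the count was higher was not tested. Whether the labels had been exchanged was not tested either, and an exchange would reverse every direction given here. The libraries are called by their labels throughout. Clusters of cells were named as X-like from marker genes, and 6 classes had at least 100 cells in both libraries.

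The share of a cell class's UMIs that lay on the 96 genes was lower in the cKO-labelled library in one class and higher in another. In smooth muscle-like cells it was 1.57% (1.55 to 1.60) in the control-labelled library, over 304 cells, and 0.998% (0.985 to 1.01) in the cKO-labelled library, over 680 cells. In epithelium-like cells it was 1.18% (1.18 to 1.19) over 1317 cells against 1.93% (1.91 to 1.96) over 110 cells. The other classes differed less. Fibroblast-like cells stood at 1.19% in both libraries. T or NK cell-like cells went from 1.33% to 1.17%, dendritic cell-like cells from 1.12% to 1.02% and macrophage or monocyte-like cells from 0.863% to 0.783%. Empty droplets, which hold free RNA, carried 1.08% and 0.988%. These are shares of UMIs, so less OXPHOS RNA and more of other RNA in a cell cannot be told apart.

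**Figure D1:**
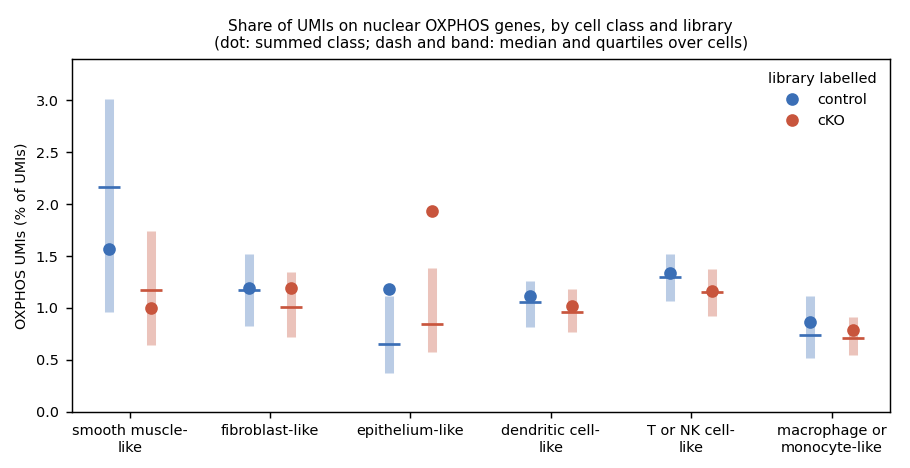
Percent of UMIs on the 96 nuclear OXPHOS genes (vertical axis) in 6 cell classes (horizontal axis), with the control-labelled library in blue and the cKO-labelled library in red. Dots are the summed class, dashes the median over cells and bands the quartiles over cells; smooth muscle-like cells are lower in the cKO-labelled library (1.57% against 0.998%), and in epithelium-like cells the summed share (1.93%) lies above the upper quartile of its cells (1.39%).

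In smooth muscle-like cells most members were lower in the cKO-labelled library. Of the 96, 85 had a mean of at least 10 CPM over both libraries. Their median log2 ratio of the cKO-labelled library over the control-labelled library, after 5 CPM was added to each, was -0.59, where the median of all 8174 genes past the same limit was 0.19. By this ratio 44 of the 85 were lower by at least 1.5-fold, against 7.52% of all genes, and 1 was higher, against 16.2%. Since this contrast led to the choice of the set, nothing is read from those counts. Of the 85 ratios, 78 were below 0, and the counting interval lay wholly below a ratio of 1 for 60 and wholly above it for 1. The 11 members under the limit were Ndufaf3, Ndufaf5, Ndufaf6, Cox4i2, Cox6a2, Cox6b2, Cox7a1, Cox7b2, Cox8b, Cox8c and Ndufa4l2.

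The bases before the start of 3 members are shown, because Ndufv3 and Cox5b had the lowest ratios in these cells and Ndufaf4 the highest. They are RefSeq sequences of build GRCm38.p6, plus strand, 5′ to 3′, cut to the stretch that lies in no annotated exon. Capitals mark the letters GCATGCG on either strand, the centre of the recognition motif of NRF1, a factor known for its sites at OXPHOS genes; overlapping matches of both strands are merged. The Cox5b gene lies at chr1:36691449-36693681 and the shown stretch at chr1:36691237-36691448. The Ndufv3 gene lies at chr17:31520115-31531331 and its stretch at chr17:31519981-31520114, bounded on the left by exons of the neighbouring gene Wdr4. The Ndufaf4 gene lies at chr4:24898083-24905001 and its stretch at chr4:24897833-24898082.
Cox5b: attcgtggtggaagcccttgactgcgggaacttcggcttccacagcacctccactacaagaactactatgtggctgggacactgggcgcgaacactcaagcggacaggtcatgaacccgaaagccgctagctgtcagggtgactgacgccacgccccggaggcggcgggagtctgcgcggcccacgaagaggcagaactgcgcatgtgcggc
Ndufv3: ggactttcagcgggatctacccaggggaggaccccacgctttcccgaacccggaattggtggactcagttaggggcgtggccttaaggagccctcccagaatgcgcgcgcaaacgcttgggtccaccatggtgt
Ndufaf4: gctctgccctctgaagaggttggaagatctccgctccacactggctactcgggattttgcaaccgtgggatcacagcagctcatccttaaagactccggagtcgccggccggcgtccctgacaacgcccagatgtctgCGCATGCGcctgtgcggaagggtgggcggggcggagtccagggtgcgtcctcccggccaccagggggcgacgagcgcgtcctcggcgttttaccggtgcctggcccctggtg
The motif was present at 1 place for Ndufaf4, from 112 to 105 bases before the start, and in neither of the other stretches. Promoters in the RefSeq table matched 77 of the 96 members by symbol. In the 250 bases before the start, 11 of those 77 (14.3%) held the motif, against 3.43% of all 27025 genes in the table. The letters CCGGAAG, an ETS-type motif such as GABP binds, were held by 14 of 77 members (18.2%) and by 7.83% of all genes. The letters AAGGTCA, the core that estrogen-related receptors bind, were held by 5 members (6.49%) and by 4.70% of all genes. The median log2 ratio in smooth muscle-like cells was -0.67 for the 11 measured members with the NRF1-type letters and -0.62 for the 60 without. A match is a description of letters, not a bound site.

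Complex I takes electrons from NADH, and its accessory subunits were lower more often than its core subunits in smooth muscle-like cells. Of 29 accessory subunits 19 were lower by at least 1.5-fold, against 7.52% of all genes, with a median log2 ratio of -0.75. None of the 7 core subunits was lower by that much, and their median was -0.41. Ndufv3, a small accessory subunit of the NADH-oxidising arm, had 103 UMIs in the control-labelled library, 107 CPM (87.7 to 130), and 66 UMIs in the cKO-labelled library, 31.4 CPM (24.3 to 39.9). Its log2 ratio of -1.63 was the lowest of all members, and the intervals of its levels did not overlap. Ndufa13, an accessory subunit also known as GRIM-19, went from 179 CPM (154 to 208) to 65.2 CPM (54.7 to 77.0), a log2 ratio of -1.39. Ndufs4, an accessory subunit of the matrix arm, was the highest of its group at 0.24, from 27 and 72 UMIs, and its intervals overlapped.

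The core subunits carry the flavin and iron-sulfur centres or shape the quinone site. The iron-sulfur subunit Ndufv2 had a log2 ratio of -0.47, from 78.2 CPM to 55.2 CPM. Ndufs1, which holds several iron-sulfur clusters, was the highest of the 7 at -0.13, from 67.8 CPM to 61.3 CPM. All 7 ratios were below 0, but that of Ndufs1 was 0.02 after thinning and 0.19 with cells grouped by marker UMIs. The assembly factors spread to both sides of 0, overlapping the subunits. Of 5 measured assembly factors none was lower by at least 1.5-fold, and their median was 0.30. Ndufaf4, which acts early in complex I assembly, had 107 UMIs in the control-labelled library, 112 CPM (91.4 to 135), and 373 UMIs in the cKO-labelled library, 177 CPM (160 to 196). Its log2 ratio of 0.65 was the only one of the 85 past 1.5-fold higher, and its intervals did not overlap. Ndufaf8 (-0.54, 32 and 45 UMIs) and Ndufaf2 (-0.23, 36 and 66 UMIs) were the lowest of this group, both with overlapping intervals.

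Complex II, which also belongs to the citric acid cycle and has no subunit encoded in mitochondria, was close to level: none of its 4 members passed 1.5-fold and the median log2 ratio was -0.07. The membrane anchor Sdhc went from 69.9 CPM to 47.6 CPM (-0.51), the iron-sulfur subunit Sdhb from 57.4 CPM to 47.6 CPM (-0.25) and the anchor Sdhd from 54.2 CPM to 62.3 CPM (0.18). Complex III showed both sides. The small subunit Uqcr10 went from 275 CPM (243 to 311) to 139 CPM (124 to 156), a log2 ratio of -0.96, and the hinge protein Uqcrh from 516 CPM (472 to 564) to 272 CPM (250 to 295), a ratio of -0.91. The large core protein Uqcrc2 stood at 99.1 CPM (80.1 to 121) and 99.4 CPM (86.4 to 114). In complex III with cytochrome c, 5 of 10 members were lower by at least 1.5-fold, against 7.52% of all genes, with a median of -0.47.

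Complex IV, the site of oxygen reduction, had 9 of its 12 measured members lower by at least 1.5-fold, against 7.52% of all genes. The median log2 ratio of the 12 was -0.74. Cox5b, a subunit on the matrix side, had 204 UMIs in the control-labelled library, 213 CPM (185 to 244), and 147 UMIs in the cKO-labelled library, 69.9 CPM (59.1 to 82.2), a ratio of -1.54. Cox8a, the smallest subunit, went from 600 CPM (552 to 651) to 269 CPM (247 to 292), a ratio of -1.14. Cox7a2l, known for joining complexes III and IV into supercomplexes, was the highest at -0.21, from 142 CPM (119 to 168) to 122 CPM (108 to 138). In complex V 10 of 17 members were lower by at least 1.5-fold, against the same 7.52%, with a median of -0.66. Atp5e, the epsilon subunit of the central stalk, went from 511 CPM (467 to 558) to 235 CPM (215 to 257), a ratio of -1.10. Atp5k, a membrane subunit where ATP synthases pair, went from 288 CPM (255 to 324) to 151 CPM (135 to 168), a ratio of -0.91. Atp5f1, the b subunit of the peripheral stalk, stood at 222 CPM (193 to 254) and 221 CPM (201 to 242). Chchd10, a protein of the space between the membranes, went from 55 UMIs, 57.4 CPM (43.2 to 74.7), to 39 UMIs, 18.5 CPM (13.2 to 25.4), a ratio of -1.40. Within each complex, then, the lowest and highest members were far apart, and only some of the levels had intervals that did not overlap.

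**Figure D2:**
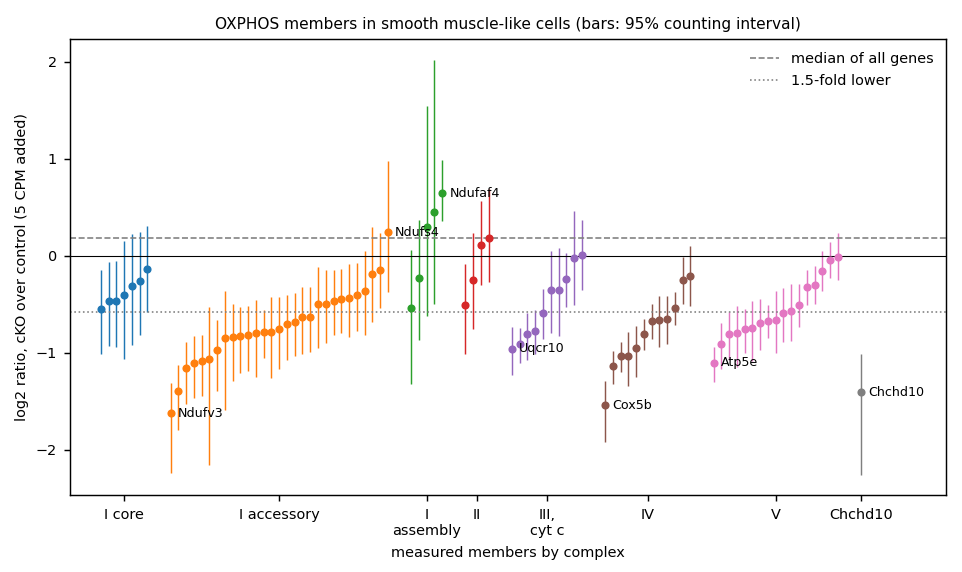
The log2 ratio of the cKO-labelled library over the control-labelled library in smooth muscle-like cells (vertical axis) for each of the 85 measured members (points), ordered within complexes along the horizontal axis; bars are 95% counting intervals, computed without the added 5 CPM. Core subunits of complex I and complex II lie above the dotted line of 1.5-fold lower, while 19 of 29 accessory subunits lie on or below it, and Ndufaf4 is the highest at 0.65.

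The smooth muscle-like class was made up of clusters 11 and 22, which differed. Cluster 11, led by the contractile genes Actg2, Pcp4, Myh11 and Tagln, held 219 cells of the control-labelled library and 354 of the cKO-labelled library, with median depths of 1507 and 1351 UMIs. Cluster 22, led by Flrt1, Tmem200a and Gata6 with Myh11 and Pgr, held 85 and 326 cells, with median depths of 5448 and 4014.5 UMIs. The OXPHOS share in cluster 11 was 2.66% (2.61 to 2.70) in the control-labelled library and 1.78% (1.75 to 1.81) in the cKO-labelled library. In cluster 22 it was 0.726% (0.704 to 0.749) and 0.700% (0.687 to 0.714). The share differed more in cluster 11, and the cluster with the low share also made up more of the class in the cKO-labelled library.

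The member ratios followed the same split. In cluster 11, 40 of 87 measured members were lower by at least 1.5-fold, against 14.3% of all genes, 2 were higher, against 23.7%, and the median log2 ratio was -0.55 where all genes had 0.15. In cluster 22, 4 of 84 were lower, against 6.90%, 7 were higher, against 17.7%, and the median was 0.03 where all genes had 0.16. The difference between the clusters has no replicate and was not tested. Cox5b was lower in both, with a ratio of -1.66 in cluster 11 (158 and 67 UMIs) and -0.65 in cluster 22 (46 and 80 UMIs). Ndufv3 was lower in cluster 11, at -1.61 (93 and 40 UMIs), but not in cluster 22, at -0.09 (10 and 26 UMIs). Ndufa13 stood at -1.22 and -0.74, and Chchd10 at -1.38 and -0.70, though Chchd10 had only 12 and 18 UMIs in cluster 22. Ndufaf4 was higher in both clusters, at 0.59 (59 and 124 UMIs) and 0.84 (48 and 249 UMIs). Some class ratios were lower than in either cluster. Atp5e stood at -0.85 in cluster 11 and -0.15 in cluster 22, Atp5k at -0.64 and 0.13, and Uqcrh at -0.74 and -0.42. The class ratio of Cox5b lay between those of the clusters. When the ratios of both clusters were averaged with equal weight, the median over members was -0.28 and 10 of 85 were lower by at least 1.5-fold, compared with -0.59 and 44 for the summed class. The share of all genes under this averaging is not given, so nothing is read from the count.

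**Figure D3:**
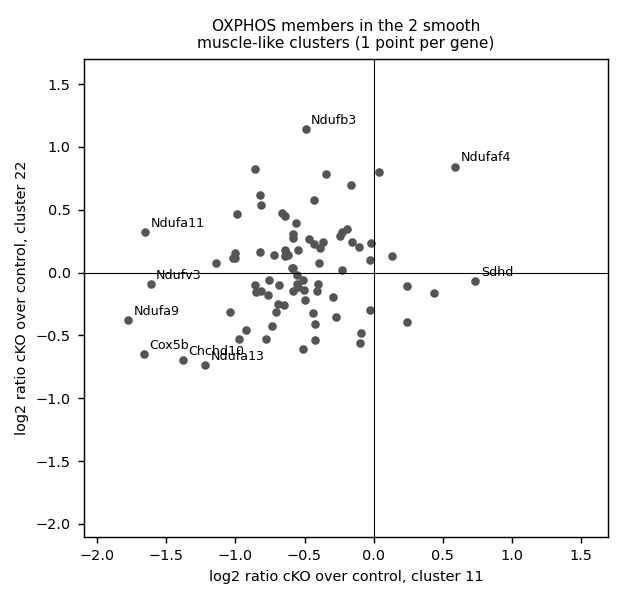
The log2 ratio of the cKO-labelled library over the control-labelled library for each member measured in both smooth muscle-like clusters (points), in cluster 11 (horizontal axis) and cluster 22 (vertical axis). Most points lie left of 0 on the horizontal axis (median -0.55 in cluster 11) and on both sides of 0 on the vertical axis (median 0.03 in cluster 22); Cox5b is below 0 in both and Ndufaf4 above 0 in both.

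Several other measures were also lower in the cKO-labelled library over the summed smooth muscle-like class. The share of UMIs on cytosolic ribosomal protein genes (Rpl and Rps) went from 14.1% to 9.02%, that on mitochondrially encoded genes from 2.96% to 2.04%, and that on the nuclear RNA Malat1 from 6.06% to 4.16%. Of 83 measured ribosomal protein genes 57 were lower by at least 1.5-fold, against 7.52% of all genes. Their median log2 ratio was -0.66, which is as low as that of the members. Of the 13 protein genes encoded in mitochondria 7 were lower, with a median of -0.61. Both class medians were lower than those within the clusters. The ribosomal median was -0.45 in cluster 11 and -0.22 in cluster 22, and the mitochondrial median -0.30 and -0.48. In cluster 22 the members had a median of 0.03, so these lists did not move with them there. Summed levels of the 8 smooth muscle markers went from 10764 to 6794 CPM, with all 8 detected in both libraries. Inside the class they went opposite ways, from 20774 to 14759 CPM in cluster 11 and from 2962 to 3761 CPM in cluster 22, and cluster 22 made up more of the class in the cKO-labelled library. Summed levels of the 8 fibroblast markers went from 1172 to 743 CPM (7 and 8 detected, Pi16 at 0 in the control-labelled library). The 5 erythroid markers went from 48.0 to 971 CPM (4 and 5 detected, Alas2 at 0 in the control-labelled library). The part of these measures in the result was not tested. With UMIs of mitochondrial and ribosomal protein genes taken out of the total, the median of the members was -0.70.

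Transcript length also moved with the ratio. The 44 members lower by at least 1.5-fold in smooth muscle-like cells had a median transcript length of 586 bases, and the other 41 had 1312. Across the 85 members Pearson's r between the log2 of length and the log2 ratio was 0.54, and Spearman's rho was 0.55. Both are a description, since all points come from the same 2 libraries. The 45 members under 800 bases had a median log2 ratio of -0.76 and the 40 longer ones -0.35. In the summed class all measured genes, with the members and ribosomal protein genes among them, shared the pattern. Those under 800 bases had a median of -0.48 (381 genes) and longer genes 0.20 (7624 genes). Ndufaf4, the highest member, had the longest median transcript of the set, 3632 bases. Within clusters r over members was 0.36 in cluster 11 and 0.21 in cluster 22. Over all genes it was 0.18 and 0.05, against 0.30 in the summed class. The part of length in the result was not tested.

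**Figure D4:**
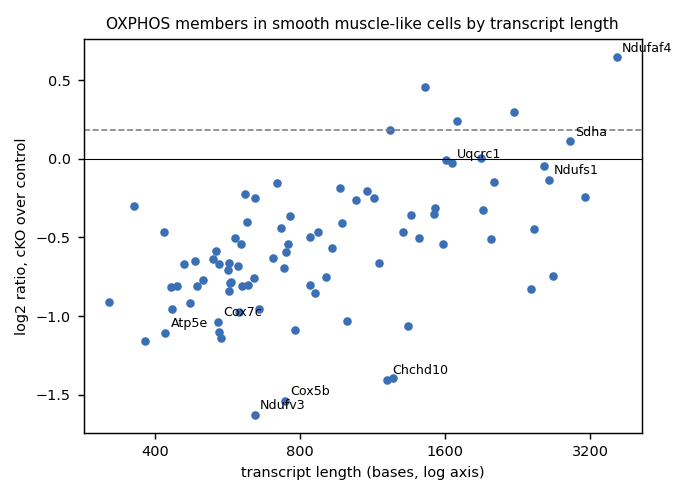
Median length of a gene's annotated protein-coding transcripts (horizontal log axis, bases) against the log2 ratio of the cKO-labelled library over the control-labelled library in smooth muscle-like cells (vertical axis) for the 85 measured members (points); the dashed line is the median of all genes (0.19). Short members lie lower (median -0.76 under 800 bases) than long ones (median -0.35).

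In epithelium-like cells the members were higher in the cKO-labelled library. Of 83 measured members 58 were higher by at least 1.5-fold, against 29.6% of all genes, none was lower, against 14.3%, and the median log2 ratio was 0.74 where all genes had 0.22. The highest was Ndufaf4 at 1.69, from 256 UMIs, 13.5 CPM (11.9 to 15.3), to 74 UMIs, 54.8 CPM (43.1 to 68.9). Atp5md, a small membrane subunit of ATP synthase, followed at 1.45, from 230 CPM (223 to 237) to 634 CPM (593 to 678). Neither pair of intervals overlapped. Ndufa6, an accessory subunit of complex I, was lowest at -0.04, from 128 CPM to 124 CPM, and Cox7a2l next at 0.03, from 169 CPM to 173 CPM, both with overlapping intervals. Unlike in smooth muscle-like cells, Cox5b was higher in the summed class, at 0.71, from 197 CPM (191 to 203) to 325 CPM (295 to 357). The clusters inside the class differed for it. By group, 6 of 7 core subunits of complex I, 23 of 29 accessory subunits, all 3 measured assembly factors, 1 of 4 members of complex II, 8 of 10 of complex III with cytochrome c, 6 of 12 of complex IV and 11 of 17 of complex V were higher by at least 1.5-fold.

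The epithelium-like class had a different make-up in each library. Of its 1317 cells in the control-labelled library, 643 were in cluster 0, 227 in cluster 1, 194 in cluster 3 and 253 in cluster 8, while the 110 of the cKO-labelled library were 67 in cluster 0, 42 in cluster 8, 1 in cluster 1 and none in cluster 3. More than 90% of the cells of clusters 0, 1 and 3 came from the control-labelled library, so these clusters may stand for a library rather than a type of cell. Cluster 8, led by Sprr2f, Prap1, Lcn2 and Clca1, carried the highest OXPHOS share of the class, 1.85% (1.83 to 1.86) and 2.28% (2.25 to 2.31). Its 42 cells gave 23400 of the 26104 OXPHOS UMIs of the class in the cKO-labelled library. Within cluster 8, 11 of 84 members were higher by at least 1.5-fold, against 25.2% of all genes, with a median of 0.30 where all genes had 0.23, so the members there lay close to other genes. Within cluster 0, 21 of 83 were higher, against 26.0%, and 4 lower, against 19.4%, with a median of 0.38 where all genes had 0.11. Ndufaf4 was higher in both, at 1.28 in cluster 8 (105 and 62 UMIs) and 1.05 in cluster 0 (49 and 12 UMIs), and Atp5md was higher in cluster 8 (1.05) but not in cluster 0 (0.07). Cox5b passed 1.5-fold in neither, at 0.33 in cluster 8 (1485 and 401 UMIs) and -0.16 in cluster 0 (384 and 35 UMIs).

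Other lists in epithelium-like cells lay on both sides of 0. Of all genes there, 29.6% were higher and 14.3% lower by at least 1.5-fold. Of 76 measured mitochondrial ribosomal protein genes (Mrpl and Mrps) 54 were higher by at least 1.5-fold, with a median log2 ratio of 0.87. Of 16 citric acid cycle genes 6 were higher, with a median of 0.44. In contrast, of the 13 genes encoded in mitochondria 4 were lower and 1 higher, with a median of -0.38. Their median was 0.04 within cluster 0 and -1.20 within cluster 8, and the libraries fill these clusters unequally. Of 16 glycolysis genes 11 were lower and 1 higher, with a median of -0.86. All 12 genes of a hypoxia response list were lower, with a median of -2.19. Summed smooth muscle markers in these cells went from 65.1 to 266 CPM, with all 8 detected in both libraries, and summed erythroid markers from 92.0 to 3.71 CPM (5 and 4 of 5 detected, Alas2 at 0 in the cKO-labelled library). The part of these in the result was not tested.

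**Figure D5:**
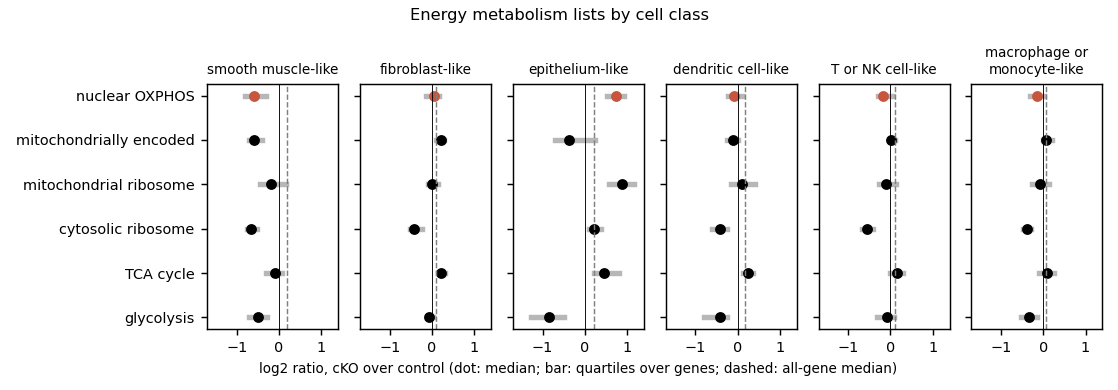
Median log2 ratio of the cKO-labelled library over the control-labelled library (horizontal axis; dots, with quartiles over genes as bars) for nuclear OXPHOS genes (red) and 5 other lists (black, rows) in 6 cell classes (panels); the dashed line is the median of all genes in that class. Nuclear OXPHOS lies at -0.59 in smooth muscle-like and 0.74 in epithelium-like cells, and the cytosolic ribosome list is below 0 in every class shown but epithelium-like cells.

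Fibroblast-like cells had a member median close to that of all genes as a class, while members were lower in some of the clusters inside it. Of 83 measured members 1 was lower by at least 1.5-fold, against 2.39% of all genes, and none higher, against 4.89%, with a median log2 ratio of 0.04 where all genes had 0.10. Ndufaf2, a late assembly factor of complex I, was lowest at -0.64, from 61.7 CPM (56.9 to 66.8) to 37.7 CPM (34.8 to 40.7), and Cox7a2l next at -0.54, from 149 CPM (141 to 157) to 101 CPM (95.9 to 106). The complex II genes Sdhc, at 0.54 from 32.0 to 48.9 CPM, and Sdha, which holds the flavin, at 0.52 from 56.2 to 82.9 CPM, were highest. The 4 fibroblast-like clusters with at least 20 cells in both libraries had medians of -0.14 (cluster 7), -0.38 (cluster 10), -0.30 (cluster 13) and -0.12 (cluster 17), all below the class value. In cluster 10, led by Clec3b, Mmp3 and Mgp, 28 of 84 members were lower, against 6.63% of all genes, and in cluster 13 22 of 84 were, against 8.20%. Cluster 23, with 16 cells of the control-labelled library and 222 of the cKO-labelled library, had an OXPHOS share of 1.58% in the latter, above the class's 1.19%. Without the clusters drawn over 90% from 1 library the class median was -0.18, and it was -0.14 after thinning and -0.23 as the mean within clusters. Medians of the cytosolic ribosomal list were also below 0 in all 4 clusters, between -0.52 and -0.66, and their part was not tested.

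In the immune classes few members passed 1.5-fold, while the medians of the members lay below those of all genes. Of 85 measured members in T or NK cell-like cells 4 were lower by at least 1.5-fold, against 6.73% of all genes, and none higher, against 9.35%, with a median of -0.17 where all genes had 0.11. There 73 of the 85 lay below the median of all genes, and the counting interval lay wholly below a ratio of 1 for 26 and wholly above it for 2. Cox5b was lowest there at -0.80, from 193 CPM (167 to 221) to 108 CPM (93.8 to 124), and then Cox7a2, the widely expressed Cox7a isoform, at -0.70, from 316 CPM (283 to 351) to 192 CPM (173 to 213). Ndufaf4 (0.53, 31 and 85 UMIs) and Ndufa10 (0.42, 58 and 143 UMIs) were highest. Of 82 in dendritic cell-like cells 1 was lower, against 5.48%, and 1 higher, against 13.6%, with a median of -0.08 where all genes had 0.17. Ndufa11 (-0.61) and Ndufs7 (-0.50) were at the low end, but both changed sign when cells were thinned to 1000 UMIs (0.81 and 0.63), and Ndufs6 (0.52) and Ndufa5 (0.59) were at the high end. Of 81 in macrophage or monocyte-like cells 2 were lower, against 5.07%, and 1 higher, against 7.43%, with a median of -0.15 where all genes had 0.06, between Ndufa7 (-0.62) and Ndufa13 (-0.60) at the low end and Cyc1 (0.46) and Ndufv1 (0.69, 16 and 25 UMIs) at the high end. Most of these end members rest on few UMIs.

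Over all 17 clusters with at least 20 cells in both libraries, 14 had a member median below 0 and 15 a median of the cytosolic ribosomal list below 0. The lowest member median was not in smooth muscle-like cells. It was -0.68 in cluster 15, unnamed and led by Ccl21a, Prox1 and Lyve1, with 31 and 102 cells, where 49 of 82 members were lower by at least 1.5-fold, against 18.7% of all genes. Its OXPHOS share was 0.974% (0.946 to 1.00) in the control-labelled library and 0.636% (0.623 to 0.650) in the cKO-labelled library. Cox5b was below 0 in 16 of the 17 clusters and lower by at least 1.5-fold in 11, where the median member was lower by that much in 2 clusters and no other member in more than 7. Ndufaf4 was higher by at least 1.5-fold in 5 clusters, more than any other member, and lower by that much in 3. Cox5b in empty droplets went the same way, from 139 to 96.0 CPM, and so did Ndufaf4, from 34.1 to 64.6 CPM. Their part in the values of cells was not tested.

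Several subunits exist as tissue isoforms, and their shares within a family do not depend on the total per cell. In the Cox7a family the intervals of the share of Cox7a2l did not overlap between the libraries in 4 of the 6 classes. In smooth muscle-like cells Cox7a2l made up 136 of 370 Cox7a UMIs, 36.8% (31.8 to 41.9), in the control-labelled library and 257 of 514 (45.6 to 54.4%) in the cKO-labelled library. The step was alike in both clusters, from 37.0% to 50.4% in cluster 11 and from 36.0% to 49.6% in cluster 22. T or NK cell-like cells went the same way, from 36.6% (32.5 to 40.9) to 46.5% (42.8 to 50.4). The share ran the other way in fibroblast-like cells, from 39.3% (37.7 to 40.9) to 32.9% (31.6 to 34.2), and in epithelium-like cells, from 43.6% (42.4 to 44.7) to 29.9% (26.7 to 33.3). The epithelium-like clusters, which the libraries fill unequally, did not both show that fall. In cluster 0 Cox7a2l had 239 and 35 UMIs where Cox7a2 had 327 and 28, so its share was higher in the cKO-labelled library. In cluster 8 Cox7a2l had 845 and 197 UMIs where Cox7a2 had 1893 and 515, a smaller fall than in the class. In empty droplets the Cox7a2l share was 47.0% and 44.8%. The rest was almost all Cox7a2, as the heart and skeletal muscle isoform Cox7a1 had 3 and 1 UMIs in smooth muscle-like cells.

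Other isoforms of striated muscle, lung or low oxygen were at or near 0 in smooth muscle-like cells. Cox4i2, an isoform linked to low oxygen, had 0 of 458 and 0 of 688 Cox4i UMIs, which allows shares of up to 0.655% and 0.436%. Cox6a2, the heart and skeletal muscle isoform, had 0 of 216 and 0 of 296, which allows up to 1.39% and 1.01%. Ndufa4l2, a hypoxia-inducible relative of Ndufa4, had 0 of 432 and 0 of 592, which allows up to 0.694% and 0.507%. Elsewhere most UMIs of Cox6a2 came from 2 clusters. It had 15 of 37 Cox6a UMIs (40.5%, 24.8 to 57.9) in B cell-like cluster 14 of the control-labelled library and 0 of 40 in the cKO-labelled library. In cluster 12, unnamed and led by Il2rb, Gzma and Klrk1, it had 15 of 166 (9.04%, 5.15 to 14.5) and 8 of 299 (2.68%, 1.16 to 5.20), while empty droplets held 1 of 233 and 0 of 165. The T or NK cell-like class did not include cluster 12. It was made up of cluster 9, with Trdc and Cd3e among its leading genes, and cluster 20, with Trbc2 and Cd28. That class had 0 of 205 and 0 of 472. Macrophage or monocyte-like cells had 1 of 273 and 2 of 277, and fibroblast-like cells 0 of 1525 and 3 of 3255.

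Cox6b2, known as a testis isoform, was found in mesothelium-like cells, at 27 of 205 Cox6b UMIs (13.2%, 8.86 to 18.6) and 6 of 93 (6.45%, 2.40 to 13.5), above the 6 of 413 (1.45%) of empty droplets in the control-labelled library and within the interval of theirs in the cKO-labelled library (3.31%, 1.23 to 7.08). It stood at 3.32% (1.44 to 6.44) and 6.12% (3.83 to 9.21) in smooth muscle-like cells. The Atp5g genes encode the same mature c subunit of ATP synthase. Atp5g1 made up 20.8% (18.0 to 23.9) and 16.1% (14.1 to 18.3) of their UMIs in smooth muscle-like cells, which overlap at the margins. In epithelium-like cells it made up 25.9% (25.1 to 26.7) and 36.2% (33.6 to 38.9).

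Levels of the members also differed between cell classes. Over the 6 classes the range of log2 level, taken in the library where it was smaller, had a median of 1.00 over members. Ndufaf4 had the widest range, 3.28, with its highest level in fibroblast-like cells of the control-labelled library (149 CPM) and smooth muscle-like cells of the cKO-labelled library (177 CPM), and its lowest in dendritic cell-like cells of both (10.6 and 13.8 CPM). In the control-labelled library it then followed from 149 CPM in fibroblast-like to 112 in smooth muscle-like, 29.6 in T or NK cell-like, 27.5 in macrophage or monocyte-like, 13.5 in epithelium-like and 10.6 CPM in dendritic cell-like cells. Chchd10 came next with a range of 2.32, highest in epithelium-like cells (61.6 and 86.0 CPM) and lowest in dendritic cell-like cells (8.33 and 5.12 CPM). Ndufaf7, a methyltransferase that acts in complex I assembly, had 1.99 and was highest in T or NK cell-like cells (19.1 and 24.9 CPM). Ndufv3 had 1.80, highest in smooth muscle-like cells of the control-labelled library (107 CPM) and in T or NK cell-like cells of the cKO-labelled library (101 CPM), and lowest in fibroblast-like cells of both (27.2 and 24.2 CPM). Ndufb11, Ndufb3, Ndufs4 and Ndufaf2 followed, with ranges between 1.66 and 1.58, and all 4 were lowest in macrophage or monocyte-like cells of both libraries.

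The genes whose levels were most like the summed OXPHOS level over 16 groups, each a class or cluster in a library, were Pgls, an enzyme of the pentose phosphate pathway (Pearson's r 0.94), the mitochondrial ribosomal gene Mrps24 (0.93), Timm10b, a factor of mitochondrial protein import (0.91), Park7 (0.91) and Elob (0.90). The r values are a description, since groups of 1 library share its depth and preparation, and 8806 genes were compared.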

How the data were processed

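Droplet libraries of pooled uteri were analysed, 1 per group. The authors deposited unfiltered UMI counts per gene and barcode, with no normalization. The counts came from Cell Ranger, version 4 per the file headers and 6.1.1 per the submitters' processing notes, with build mm10 per those notes. Strand use and the treatment of reads shared with pseudogenes are not given in the sources used here, so members with pseudogene copies are uncertain. The features and barcodes files hold names only. Of the 32285 gene identifiers 99.6% occur in GENCODE vM21, all 96 members included.

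A barcode was kept as a cell from 1000 UMIs and 500 genes upwards if mitochondrial UMIs made up no more than 20%. In the control-labelled library 83.4% of UMIs were in cells and 283 barcodes failed the mitochondrial limit, and in the cKO-labelled library 85.7% and 43. Scrublet marked 4 of 7076 cells (0.0565%), so it did not work and doublets must be assumed to remain.

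Counts were log-scaled with scanpy 1.11.5, and 2000 variable genes, 30 principal components and 15 neighbours entered Leiden clustering at resolution 1.0. A cluster name needed 3 markers with a UMI in 25% of its cells and 2 times the level of the median cluster, and clusters whose leading genes went against the name stayed unnamed. That last rule was set after clusters 2 and 15 had been seen. UMIs were summed per library and class and scaled to CPM. Log2 ratios (5 CPM added) were taken for genes with a mean of at least 10 CPM, which makes changes of low genes look smaller. Intervals are exact: Poisson for levels, Clopper-Pearson for shares and conditional for ratios (scipy 1.17.1). PCR copies were removed by UMI, and an upper limit for a count of 0 is 3 counts of the total. The 3′ counts are not scaled by length, so levels were not compared between genes. The ratio code was tested on simulated counts.

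Members and lists were chosen with earlier results of these data known. Named genes were Prickle1, Ndufv3, Chchd10, Cox5b and isoform families with at least 20 UMIs, the 2 lowest and 1 highest member of each complex in smooth muscle-like cells, the 2 lowest and 2 highest in each other class, the 8 with the widest range between classes, and the 5 genes most like the summed level. Cluster values for Ndufa13, Atp5md, Atp5e, Atp5k and Uqcrh, and the counts over clusters, were chosen after their values were seen. So were those of Cox5b and the Cox7a genes in epithelium-like clusters. The NRF1-type letters were shortened after a longer form with an unspecified base had been counted, which more members and more of all genes held. One result that this rule would name is not reported here. Alternatives covered scaling, pseudocount, filters, thinning to 1000 UMIs, mitochondrial limits, ambient RNA, clustering and doublets.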

Additional observations from a re-analysis of the deposited data

Results flagged for a closer look

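The member medians of epithelium-like cells (0.74) and smooth muscle-like cells (-0.59) had opposite signs, a gap of 1.33 on the log2 scale. The difference between these classes was not tested, since each has 1 library per group. In the clusters that both libraries filled, the gap was between medians of 0.38 and 0.30 (clusters 0 and 8) on one side and -0.55 and 0.03 (clusters 11 and 22) on the other.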

How the results depend on the processing

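No paired analysis was possible because each group has 1 library, and for the same reason no library could be left out. Of 170 class-level values recomputed, 139 stayed within an interval, or within 1.5 times for counts. The other 31 moved further, none changing the sign of a called value. For summed shares the interval was the counting interval. For member medians it ran between the medians of the members' own interval bounds, in smooth muscle-like cells from -0.95 to -0.34. Those bounds belong to single genes and not to the median, so a median inside them is not shown to be stable. In smooth muscle-like cells the member median was -0.80 with median of ratios scaling (59 members lower by at least 1.5-fold) and -0.28 as the mean within clusters (10 lower). Except where stated, counts past 1.5-fold in this section lack the share of all genes under the same setting, so nothing is read from them. The log2 ratio of the summed share there was -0.65, and -0.76 outside mitochondrial and ribosomal protein genes, -0.72 after thinning to 1000 UMIs and -0.69 after ambient subtraction. In epithelium-like cells the median was 0.51 with median of ratios scaling (35 higher by at least 1.5-fold) and 0.30 as the mean within clusters (18 higher). Among genes of at least 100 CPM 31 were higher. Without clusters drawn over 90% from 1 library only cluster 8 remained. The median was then 0.30, with 11 higher, against 25.2% of all genes. The share ratio in epithelium-like cells was 0.71, and 0.52 thinned, 0.77 with a mitochondrial limit of 10%, 0.75 after ambient subtraction, 0.64 with cells grouped by marker UMIs and 0.30 without those clusters. In fibroblast-like cells the median was -0.14 thinned, -0.18 without those clusters and -0.23 as the mean within clusters, and the share ratio was -0.055 outside mitochondrial and ribosomal protein genes, -0.20 thinned, 0.011 after ambient subtraction, -0.011 by marker UMIs and -0.19 without those clusters. In dendritic cell-like cells the share ratio was -0.20 outside those gene groups, -0.23 thinned, -0.088 with no mitochondrial limit and -0.10 by marker UMIs; it was -0.27 outside those gene groups in T or NK cell-like cells and -0.23 thinned in macrophage or monocyte-like cells. Of the single members and isoform shares, 652 values stayed within their interval, 49 moved further and 1, past 1.5-fold as reported, changed sign: Ndufa11 in dendritic cell-like cells was 0.81 when thinned, against -0.61 as reported and -0.79 at the lowest. Ndufs7 there, which did not pass 1.5-fold, was 0.63 when thinned against -0.50. Smaller ratios that changed sign under at least 1 alternative were those of Cox7a2l and Ndufa6 in epithelium-like cells and of Cox7a2l, Uqcrc2, Sdhd, Ndufs4, Atp5f1 and Ndufs1 in smooth muscle-like cells. Thinning leaves few UMIs per member, and the causes of the other shifts were not tested. Shallow cells limit cluster 11, and 110 cells limit the epithelium-like class of the cKO-labelled library.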
